A study of Homo sapiens with 12 samples.

Results

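The genes described here encode the iron and 2-oxoglutarate dependent dioxygenases, a family of enzymes that hold a ferrous iron in their active site. Members were chosen by symbol from a list of 49 genes, and 44 of them were in the deposited count table, among 10940 genes in all. P4HTM, P3H2, OGFOD2, TMLHE and BBOX1 were not analysed here. All 44 passed the low-count filter and were tested together with the other genes, 10459 in all. The question was whether transcripts of enzymes that use iron differ when iron is left out of a culture medium or put back.

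These enzymes couple the splitting of 2-oxoglutarate into succinate and carbon dioxide to the oxidation of a substrate by molecular oxygen. Their substrates include prolines and lysines of collagen, a proline and an asparagine of the hypoxia-inducible factors (HIF), methylated lysines of histones, methylated bases of DNA and RNA, and fatty acids such as phytanic acid. Since iron, oxygen, 2-oxoglutarate and succinate all act on the enzymes themselves, a transcript level alone does not give an enzyme's activity. Activity was not measured in these data.

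The cells were HepG2, a long-established line from a human liver tumour, labelled wild type, in 4 media with 3 libraries each. Plasmax-TE+Fe is Plasmax without its trace elements and with iron added back, and Plasmax-TE is Plasmax without trace elements. Plasmax is a medium modelled on the nutrients of human plasma, and EMEM (Eagle's minimum essential medium) is the medium the line was maintained in. All 4 media contained 10% heat-inactivated fetal bovine serum, a source of iron of its own, so Plasmax-TE is lower in added iron and not free of it. Cells were moved to their medium 24 h after seeding, received it afresh after 48 h and were harvested at 96 h. Leaving out trace elements removes other metals along with iron, so only Plasmax-TE+Fe against Plasmax-TE differs by iron alone.

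Libraries read the 3′ end of messenger RNA (QuantSeq) and held 1562125 to 2384090 counts, so that 1 count was worth 0.419 to 0.640 CPM (counts of a gene scaled to a fixed library total). Levels below are CPM, as mean ± SD over 3 libraries where a mean is given. Log2 fold changes are given ± SE from edgeR's quasi-likelihood test, and a gene was called at a Benjamini-Hochberg adjusted p under 0.05 over all genes tested. Whether the 3 libraries of a medium are separate cultures is not stated, so the p-values rest on a spread between libraries that may be only technical. In such bulk libraries a smaller share of cells with a transcript and less of it per cell cannot be told apart. Plasmax-TE+Fe replicate 2 and Plasmax-TE replicate 1 stood apart on the second principal component (17.6% of the variance of log2 CPM), at -32.0 and -35.5 against -8.11 to 19.6 in the other libraries. They carry the adjacent library numbers 88 and 87. Libraries of these media from the same run of 4 consecutive numbers had positively correlated deviations from their medium means. For Plasmax-TE+Fe against Plasmax-TE, values with a block for the run are therefore also given for PLOD2, PHYH, IDH1 and the hepatocyte markers. The 6 hepatocyte markers looked for were all detected, and their summed level differed by medium, at 9841 to 12027 CPM in Plasmax-TE+Fe, 14421 to 16646 in Plasmax-TE, 6252 to 6797 in Plasmax and 25752 to 29574 in EMEM. The sum is mostly ALB, AFP and APOA1, while SERPINA1, another of the 6, was lower in Plasmax-TE than in Plasmax (17.2 ± 7.18 against 31.6 ± 5.91 CPM, -0.87 ± 0.27, adjusted p = 0.0441). With the block, ALB (-0.47, adjusted p = 0.00905), AFP (-0.62, 0.00920) and APOA1 (-0.51, 0.0266) were called lower in Plasmax-TE+Fe than in Plasmax-TE. Without it they were not (0.0739, 0.0739 and 0.238). TTR, SERPINA1 and HNF4A were called in neither fit. Of all genes, 1.45% were called with the block and 0.258% without it. The part of these markers in the results was not tested. Of the markers of other cell types, COL1A1 alone among 5 fibroblast markers was in the table (0.541 to 8.36 CPM), CD68 and CD14 summed to 3.13 to 14.3 CPM, and 0 of 4 endothelial markers were in it.

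Putting iron back left the family without a called member, and most of its calls lay between Plasmax and EMEM. The whole table likewise had the fewest calls for iron put back (0.258% of all genes) and the most in Plasmax against EMEM (21.4%). In Plasmax-TE+Fe against Plasmax-TE, 0 of 44 dioxygenases were called, against a background of 0.258% of all genes tested (27 genes), so a count of 0 is near what the whole table gives. At an unadjusted p under 0.05 there were 4, beside 974 of the 10459 genes tested. DESeq2 and limma-voom also called 0, against 0.774% and 0.191% of all genes. In Plasmax-TE against Plasmax 2 were called (4.55%), PHYH higher (background 5.61%) and OGFOD1 lower (background 5.63%), against 11.2% of all genes in either direction. In Plasmax-TE+Fe against Plasmax 0 were called, against 1.20% of all genes. At an unadjusted p under 0.05 there were 4 members, beside 1420 of the 10459 genes. By DESeq2 or limma-voom there were 0, against 1.48% and 1.21% of all genes. In Plasmax against EMEM 13 were called (29.5%), against 21.4% of all genes, 2 of them higher (background 9.90%) and 11 lower (background 11.5%). The test of the 4 media together called 8 (18.2%), against 18.0% of all genes.

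**Figure D1:**
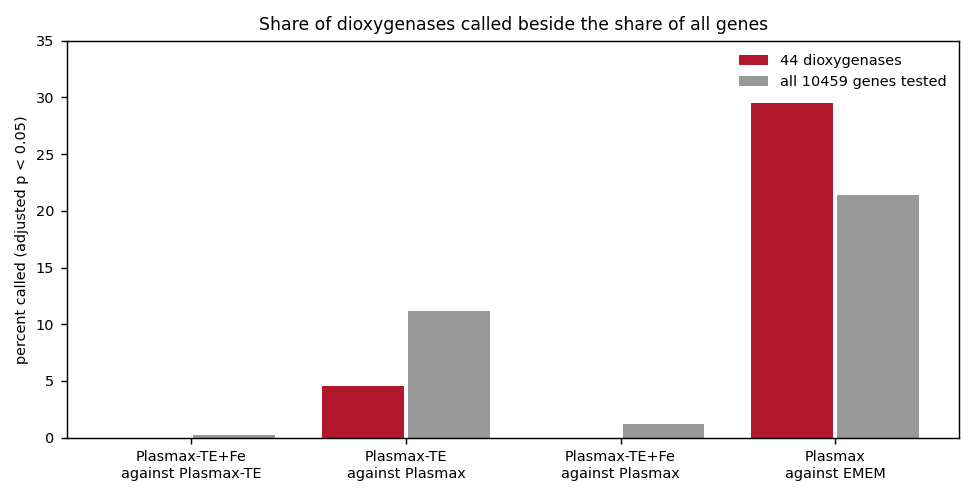
Share of genes called, in percent, in each of the 4 pairwise comparisons (adjusted p under 0.05), for the 44 dioxygenases and for all 10459 genes tested. The dioxygenase bar is at 0 in both comparisons of Plasmax-TE+Fe, below the bar of all genes in Plasmax-TE against Plasmax (4.55% and 11.2%) and above it in Plasmax against EMEM (29.5% and 21.4%).

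The family's changes were centred near 0 in each comparison. The median log2 fold change of the members was 0.01 in Plasmax-TE+Fe against Plasmax-TE (0.00 over all genes), -0.05 in Plasmax-TE against Plasmax (0.02 over all genes), -0.01 in Plasmax-TE+Fe against Plasmax (0.01) and -0.05 in Plasmax against EMEM (-0.01). For iron put back, single members ran from -0.54 to 1.01, and 39 of 44 lay within 0.5 of zero. The 95% interval of the log2 fold change stayed within 1 in either direction for 34 of 44 members in that comparison, so for these a change of 2-fold or more lay outside the interval. For the other 10, KDM4C, PLOD2, KDM8, HSPBAP1, ALKBH1, ALKBH6, ALKBH8, TET2, TET3 and PHYH, it reached 1, so a change of that size lay inside it. These intervals use the model's 8 residual degrees of freedom, while the test borrows spread across genes (19.9 degrees of freedom in the median), so an interval can hold 0 beside an unadjusted p under 0.05, as for PHYH and HSPBAP1. The corresponding numbers were 30 of 44 in Plasmax-TE against Plasmax, 31 in Plasmax-TE+Fe against Plasmax and 22 in Plasmax against EMEM.

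Counting libraries that do not overlap gave shares below or near those of all genes in each comparison. This held also in Plasmax against EMEM, where the share called was above that of all genes (29.5% against 21.4%). Between Plasmax-TE+Fe and Plasmax-TE, 4 members (9.09%) did not overlap, against 13.4% of all genes. KDM4C, PLOD2 and HSPBAP1 were above Plasmax-TE there (6.91% of all genes were), and ALKBH3 was below it (6.52% were). Plasmax-TE and Plasmax did not overlap in 9 members (20.5%, against 30.4% of all genes), Plasmax-TE+Fe and Plasmax in 8 (18.2%, against 18.4%), and Plasmax and EMEM in 18 (40.9%, against 39.8%).

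**Figure D2:**
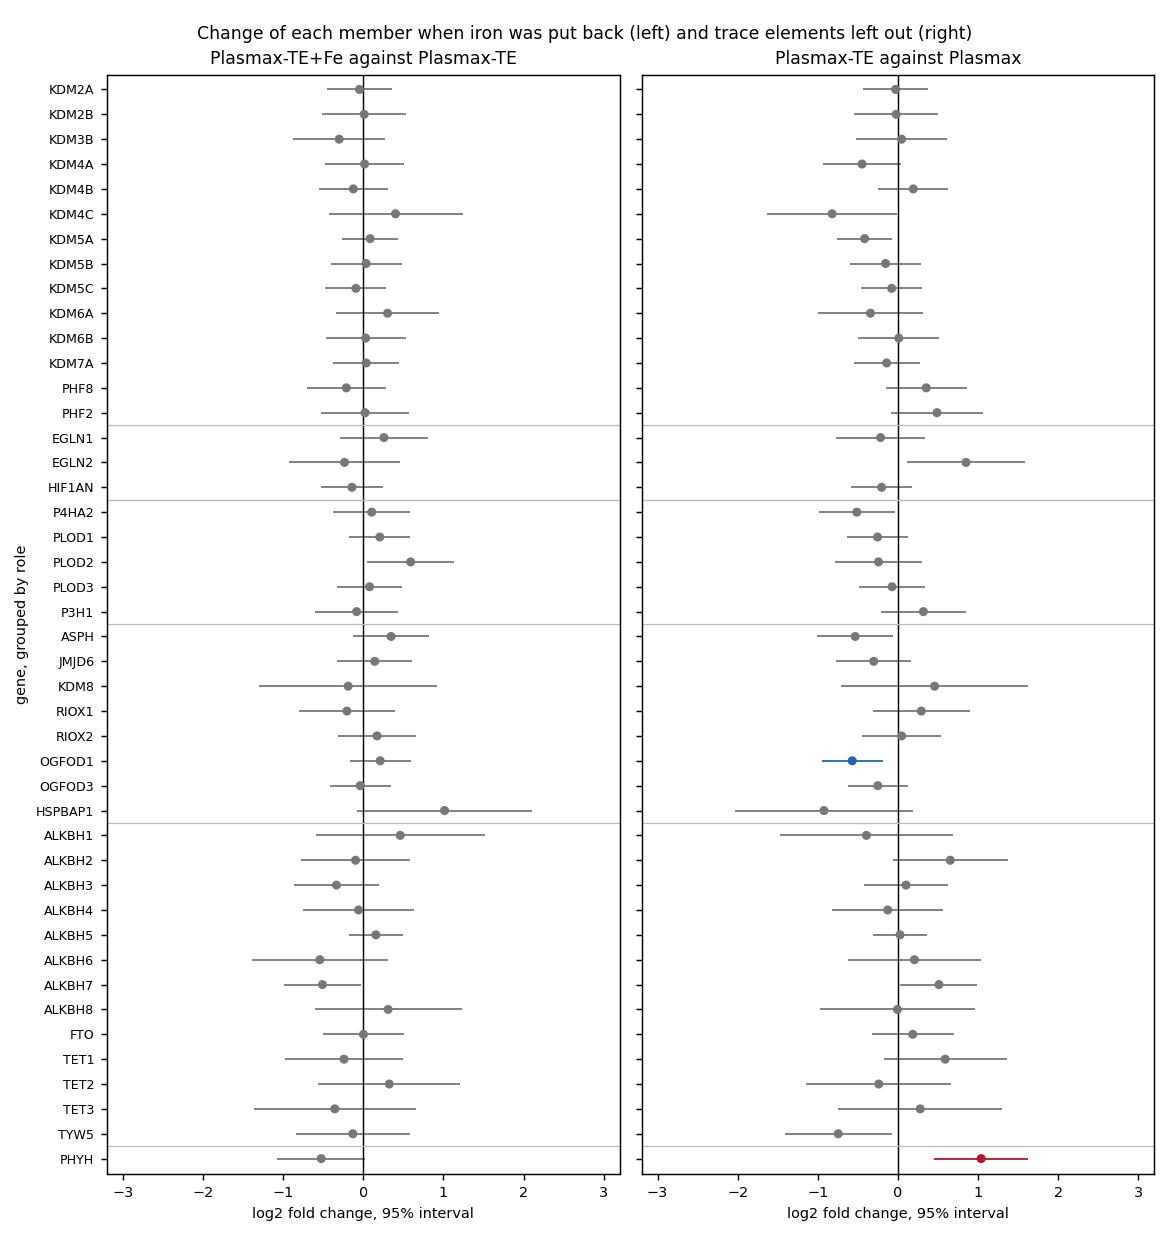
Log2 fold change of each of the 44 dioxygenases with its 95% interval, grouped by role, for Plasmax-TE+Fe against Plasmax-TE (left) and Plasmax-TE against Plasmax (right). Red marks a called member that was higher and blue one that was lower: there are 0 on the left, and PHYH (higher) and OGFOD1 (lower) on the right.

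The HIF hydroxylases are members through which cells sense oxygen. EGLN1 (ENSG00000135766) and EGLN2 (ENSG00000269858) hydroxylate prolines of HIF alpha subunits, which marks them for degradation through VHL, and HIF1AN (ENSG00000166135) hydroxylates an asparagine that HIF needs to recruit coactivators. EGLN1 had 29.8, 33.5 and 39.2 CPM in Plasmax-TE+Fe, 24.0, 26.5 and 34.5 in Plasmax-TE, 28.8, 41.3 and 29.6 in Plasmax and 43.0, 56.6 and 30.0 in EMEM. The media overlapped in this gene, and it was called in 0 of the 5 tests. Its log2 fold change was 0.26 ± 0.24 for iron put back (95% interval -0.29 to 0.80) and -0.22 ± 0.24 in Plasmax-TE against Plasmax.

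EGLN2 had 13.5, 37.9 and 19.4 CPM in Plasmax-TE+Fe, 37.7, 23.8 and 20.4 in Plasmax-TE, 11.5, 18.8 and 14.4 in Plasmax and 28.7, 22.7 and 33.2 in EMEM. Its highest values in the media without trace elements were those of the 2 libraries that stood apart. All Plasmax libraries were below all EMEM libraries (-0.95 ± 0.31, adjusted p = 0.0359). That call was lost without any one of Plasmax replicates 1, 2 and 3 or EMEM replicates 1 and 3 (adjusted p 0.0529 to 0.143). In Plasmax-TE against Plasmax it was 0.85 ± 0.32 with an adjusted p of 0.0889, which became 0.0312 without Plasmax-TE+Fe replicate 2, a library that enters through the shared estimate of spread. With iron put back its value was -0.24 ± 0.30 (95% interval -0.92 to 0.45), and it was 0.041 without Plasmax-TE+Fe replicate 1, -0.70 without Plasmax-TE+Fe replicate 2 and 0.013 without Plasmax-TE replicate 1.

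HIF1AN had 51.3, 58.9 and 43.7 CPM in Plasmax-TE+Fe, 56.5, 58.8 and 53.4 in Plasmax-TE, 63.4, 65.3 and 66.4 in Plasmax and 51.7, 43.2 and 59.1 in EMEM. The Plasmax libraries were above those of the other media without overlap, yet it was called in 0 of the 5 tests, at 0.29 ± 0.17 in Plasmax against EMEM (adjusted p = 0.225) and -0.20 ± 0.17 in Plasmax-TE against Plasmax (adjusted p = 0.462).

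Of the HIF subunits and VHL, given as context, HIF1A had 83.2, 46.5 and 87.9 CPM in Plasmax-TE+Fe, 42.8, 75.8 and 65.4 in Plasmax-TE, 122, 153 and 125 in Plasmax and 84.1, 73.8 and 72.3 in EMEM. It was lower in Plasmax-TE than in Plasmax (-1.09 ± 0.23, adjusted p = 0.00444) and higher in Plasmax than in EMEM (0.74 ± 0.22, adjusted p = 0.0230), with no overlap in either pair. Between Plasmax-TE+Fe and Plasmax-TE it was 0.24 ± 0.23 (adjusted p = 0.826). EPAS1, ARNT and VHL were called in 0 of the 5 tests. EGLN3, another prolyl hydroxylase of HIF that was read as context, averaged 1.70 ± 0.495 CPM in Plasmax and 8.52 ± 4.53 CPM in EMEM (-2.29 ± 0.59, adjusted p = 0.00832), with only 2, 3 and 5 counts in the Plasmax libraries.

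The collagen hydroxylases act on new procollagen chains in the endoplasmic reticulum, and 3 of the 5 measured were lower in Plasmax than in EMEM (11.5% of all genes were). PLOD1 (ENSG00000083444), PLOD2 (ENSG00000152952) and PLOD3 encode lysyl hydroxylases, P4HA2 (ENSG00000072682) a catalytic subunit of prolyl 4-hydroxylase, and P3H1 a prolyl 3-hydroxylase. Their summed level ran from 380 to 507 CPM in Plasmax-TE+Fe, 352 to 378 in Plasmax-TE, 371 to 449 in Plasmax and 574 to 842 in EMEM. The 3 that were lower, PLOD1, PLOD2 and P4HA2, are shown with the 250 bases before their RefSeq start (GRCh38.p14). They were picked by that call, and windows of members that were not called are not shown. A part of HIF in these differences was not tested. Capitals mark ACGTG and GCGTG, the core letters of the HIF binding element, on either strand (CACGT and CACGC where they lie on the other one). The PLOD2 window is chr3:146161185-146161434 on the minus strand, that of PLOD1 chr1:11934467-11934716 on the plus strand and that of P4HA2 chr5:132227092-132227341 on the minus strand.
PLOD2: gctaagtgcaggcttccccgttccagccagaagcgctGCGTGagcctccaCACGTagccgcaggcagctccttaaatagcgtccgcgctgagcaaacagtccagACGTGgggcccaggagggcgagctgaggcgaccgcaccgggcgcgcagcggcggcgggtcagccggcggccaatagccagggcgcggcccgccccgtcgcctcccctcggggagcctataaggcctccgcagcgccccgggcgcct
PLOD1: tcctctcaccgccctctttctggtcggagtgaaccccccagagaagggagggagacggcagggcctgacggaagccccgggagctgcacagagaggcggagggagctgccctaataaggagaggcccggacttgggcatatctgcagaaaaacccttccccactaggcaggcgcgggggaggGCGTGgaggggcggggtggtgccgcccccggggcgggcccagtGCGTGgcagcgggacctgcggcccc
P4HA2: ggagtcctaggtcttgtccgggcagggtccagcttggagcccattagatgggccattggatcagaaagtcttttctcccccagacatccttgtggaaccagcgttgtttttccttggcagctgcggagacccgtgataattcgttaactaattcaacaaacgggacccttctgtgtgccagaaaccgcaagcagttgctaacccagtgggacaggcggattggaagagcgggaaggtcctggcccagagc
The PLOD2 window held 2 matches to ACGTG and 1 to GCGTG, the PLOD1 window 0 and 2, and the P4HA2 window 0 of either. Of 35116 such windows, 18.5% held ACGTG, 32.2% held GCGTG and 43.2% held at least 1 of them, so a match is common and is a description of these letters, not a site.

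PLOD2 had 160.1, 158 and 237 CPM in Plasmax-TE+Fe, 138, 122 and 109 in Plasmax-TE, 164, 189 and 90.2 in Plasmax and 289, 477 and 279 in EMEM. Every EMEM library was above every other library. It was lower in Plasmax than in EMEM by edgeR's quasi-likelihood test (-1.31 ± 0.23, or 0.404 of the EMEM level, adjusted p = 0.000447). It also had the lowest unadjusted p of the family for iron put back: the Plasmax-TE+Fe libraries were above the Plasmax-TE libraries without overlap, at 0.59 ± 0.23 (95% interval 0.05 to 1.13), with an adjusted p of 0.425 over all genes. With a block for the library-number run it was 0.57 (adjusted p = 0.105). In Plasmax-TE against Plasmax it was -0.24 ± 0.24.

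PLOD1 had 107.6, 85.98 and 112.7 CPM in Plasmax-TE+Fe, 81.6, 90.2 and 93.2 in Plasmax-TE, 90.9, 108 and 118 in Plasmax and 166, 172 and 149 in EMEM. EMEM was again above all other libraries, and Plasmax against EMEM gave -0.66 ± 0.16 (adjusted p = 0.00639). P4HA2 had 28.2, 25.4 and 25.3 CPM in Plasmax-TE+Fe, 21.7, 29.2 and 22.0 in Plasmax-TE, 33.9, 39.7 and 31.9 in Plasmax and 43.0, 61.2 and 43.2 in EMEM. Its libraries fell into 3 levels, with EMEM highest, Plasmax next and both media without trace elements lowest. The 4 media together gave an adjusted p of 0.00169, while Plasmax against EMEM just passed (-0.54 ± 0.19, adjusted p = 0.0485) and Plasmax-TE against Plasmax did not (-0.51 ± 0.20, adjusted p = 0.111). The call against EMEM was lost with any single library left out except Plasmax-TE+Fe replicate 2 and Plasmax-TE replicate 1 (adjusted p 0.0504 to 0.256), and with a replicate block (0.0535).

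PLOD3 averaged 104 ± 16.5 CPM in Plasmax-TE+Fe, 98.4 ± 12.2 in Plasmax-TE, 105 ± 13.3 in Plasmax and 90.3 ± 12.5 in EMEM, and P3H1 averaged 25.3 ± 5.17 CPM in Plasmax-TE+Fe, 26.8 ± 2.02 in Plasmax-TE, 21.3 ± 5.21 in Plasmax and 24.7 ± 2.72 in EMEM. Both were called in 0 of the 5 tests. P4HA1, the other catalytic subunit of prolyl 4-hydroxylase measured, was read as context. It had 129, 97.4 and 86.3 CPM in Plasmax-TE against 87.1, 52.8 and 50.7 in Plasmax (0.73 ± 0.22, adjusted p = 0.0352, with overlapping libraries), and it was lower in Plasmax than in EMEM (-1.85 ± 0.21, adjusted p = 4.22e-06), while iron put back gave -0.09 ± 0.21.

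**Figure D3:**
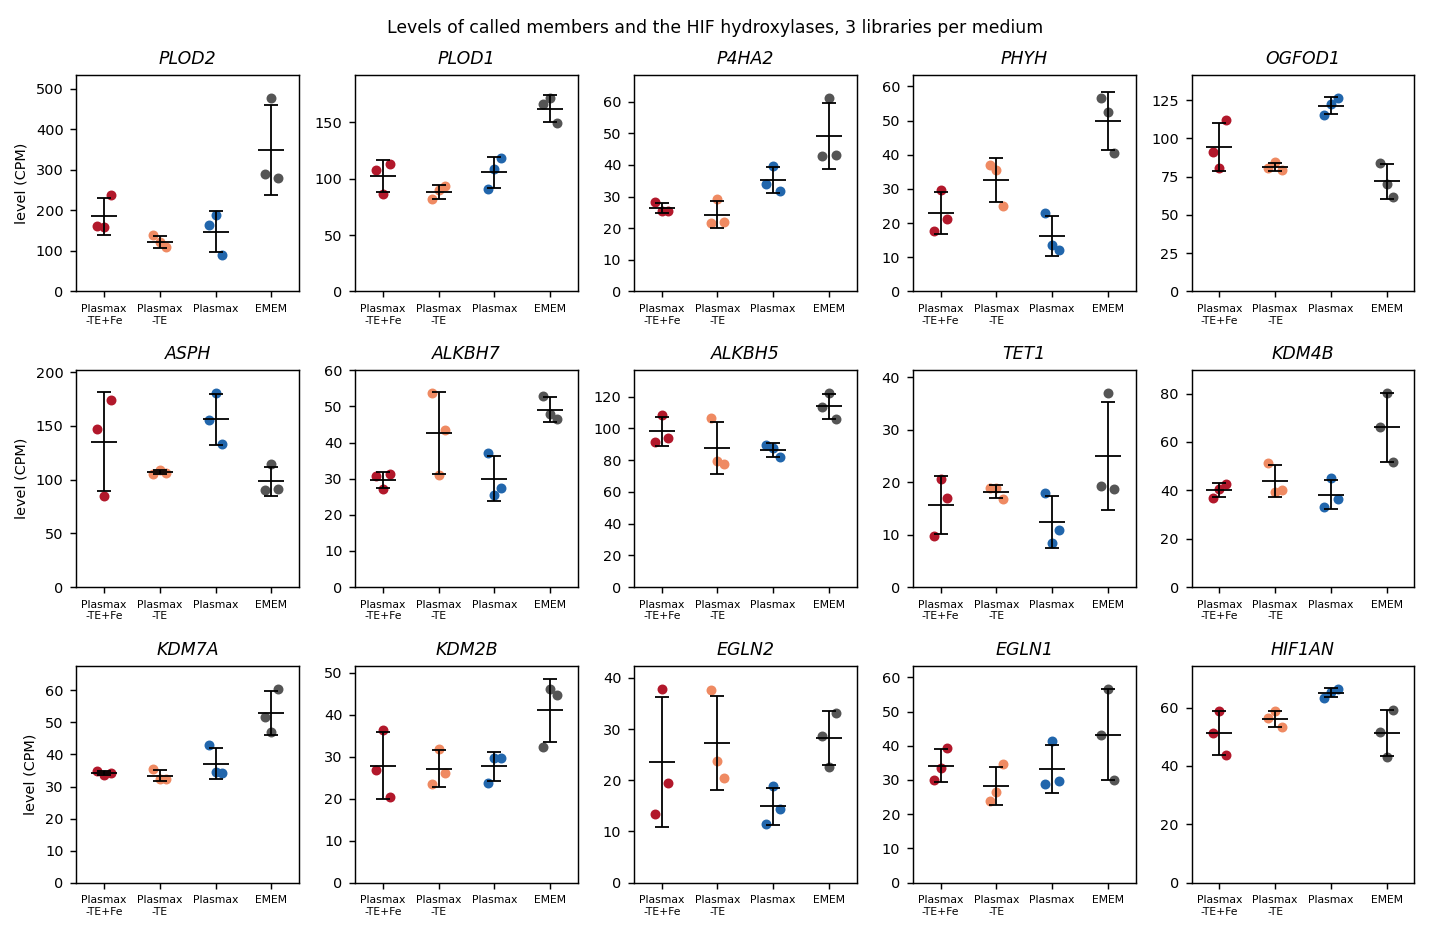
CPM of members in the 12 libraries, with media from left to right as Plasmax-TE+Fe, Plasmax-TE, Plasmax and EMEM. Points are libraries, and bars show the mean with the SD over 3 libraries. In the PLOD2 panel the EMEM libraries (279 to 477 CPM) lie above all others, and in the OGFOD1 panel the Plasmax libraries (115 to 127 CPM) do.

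Among the 8 other protein hydroxylases measured, 2 were higher in Plasmax than in EMEM (9.90% of all genes were) and 0 were lower (11.5% of all genes were). OGFOD1 (ENSG00000087263), which hydroxylates a proline of the ribosomal protein RPS23, had 91.2, 80.6 and 112 CPM in Plasmax-TE+Fe, 80.5, 84.4 and 79.5 in Plasmax-TE, 115, 123 and 127 in Plasmax and 84.1, 70.5 and 61.4 in EMEM. The Plasmax libraries were above all 9 others. It was lower in Plasmax-TE than in Plasmax (-0.57 ± 0.16, adjusted p = 0.0297) and higher in Plasmax than in EMEM (0.71 ± 0.17, adjusted p = 0.00417). Plasmax-TE+Fe lay below Plasmax without overlap but was not called (-0.36 ± 0.16, adjusted p = 0.327), and for iron put back it was 0.21 ± 0.17 (95% interval -0.17 to 0.59). The Plasmax-TE call was lost without any one of Plasmax-TE replicates 1, 2 and 3 or Plasmax replicates 2 and 3 (adjusted p 0.0640 to 0.0877).

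ASPH (ENSG00000198363) encodes a hydroxylase of aspartate and asparagine in EGF-like domains. It had 147, 84.4 and 174 CPM in Plasmax-TE+Fe, 106, 109 and 106 in Plasmax-TE, 156, 180.2 and 133 in Plasmax and 90.34, 114.1 and 90.99 in EMEM. Plasmax was above Plasmax-TE and above EMEM without overlap, and the difference from EMEM was called (0.61 ± 0.21, adjusted p = 0.0429), though not with a replicate block (0.0597) or without any one of Plasmax-TE replicate 2, Plasmax replicates 1 and 2 and EMEM replicates 1 and 3 (0.0542 to 0.138). Plasmax-TE+Fe spread most, with replicate 2, a library that stood apart, below every Plasmax-TE library and the other two above them. ASPH for iron put back was 0.35 ± 0.21 (adjusted p = 0.646), and without Plasmax-TE+Fe replicate 2 it was 0.61 (adjusted p = 0.0468). In Plasmax-TE against Plasmax it was -0.54 ± 0.21 (adjusted p = 0.101), and -0.53 with an adjusted p of 0.0167 without that library.

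The other 6 of this group, JMJD6, KDM8, RIOX1, RIOX2, OGFOD3 and HSPBAP1, were called in 0 of the 5 tests. HSPBAP1 had the largest log2 fold change of the family for iron put back, with 5.88, 6.49 and 9.44 CPM in Plasmax-TE+Fe against 2.85, 4.94 and 2.62 in Plasmax-TE. The libraries did not overlap, but at this low level the value was 1.01 ± 0.47 with an adjusted p of 0.518.

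Of the 13 DNA and RNA oxygenases, 3 were lower in Plasmax than in EMEM (11.5% of all genes were). In the other 3 comparisons 0 were called, against 0.258% of all genes in Plasmax-TE+Fe against Plasmax-TE, 11.2% in Plasmax-TE against Plasmax and 1.20% in Plasmax-TE+Fe against Plasmax. ALKBH7 (ENSG00000125652), a mitochondrial member, had 30.7, 27.0 and 31.3 CPM in Plasmax-TE+Fe, 53.6, 31.0 and 43.4 in Plasmax-TE, 37.1, 25.6 and 27.4 in Plasmax and 53.0, 47.8 and 46.4 in EMEM. Plasmax was below EMEM without overlap (-0.77 ± 0.21, adjusted p = 0.0113, and 0.0837 without Plasmax replicate 2). Its comparison of Plasmax-TE+Fe with Plasmax-TE had the second-lowest p of the family, at -0.51 ± 0.21 (95% interval -0.99 to -0.04, adjusted p = 0.433), and the libraries overlapped. The highest Plasmax-TE value was that of replicate 1, a library that stood apart. Over the 22 alternative analyses the log2 fold change of ALKBH7 in this comparison ran from -0.70 to -0.27, and it was called in 0 of them.

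ALKBH5 (ENSG00000091542), which removes the methyl group of N6-methyladenosine in RNA, had 91.6, 109 and 93.9 CPM in Plasmax-TE+Fe, 107, 79.4 and 77.5 in Plasmax-TE, 89.6, 87.8 and 81.7 in Plasmax and 113, 122 and 106 in EMEM. It was lower in Plasmax than in EMEM (-0.45 ± 0.15, adjusted p = 0.0321), a call lost without any one of the 6 libraries of these media or Plasmax-TE+Fe replicate 3 (0.0523 to 0.115). FTO, the other demethylase of that mark, averaged 52.7 ± 16.7 CPM in Plasmax-TE+Fe, 52.2 ± 16.2 in Plasmax-TE, 46.3 ± 9.40 in Plasmax and 46.1 ± 4.51 in EMEM and was called in 0 tests. TET1 (ENSG00000138336), which oxidises methylcytosine in DNA, had 9.67, 20.5 and 16.9 CPM in Plasmax-TE+Fe, 18.8, 18.8 and 16.7 in Plasmax-TE, 17.9, 8.36 and 10.8 in Plasmax and 19.3, 36.9 and 18.7 in EMEM. Its difference between Plasmax and EMEM (-1.11 ± 0.32, adjusted p = 0.0171) was lost without Plasmax replicate 2 (0.110), Plasmax replicate 3 (0.0546) or EMEM replicate 2 (0.153). TET2 and TET3 were called in 0 tests.

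TYW5, which hydroxylates the modified guanosine wybutosine of a transfer RNA, had the lowest p of the family in Plasmax-TE+Fe against Plasmax. It had 10.9, 14.1 and 8.44 CPM in Plasmax-TE+Fe, 9.70, 11.2 and 15.2 in Plasmax-TE, 12.8, 24.6 and 22.9 in Plasmax and 11.8, 13.8 and 17.3 in EMEM. Plasmax replicates 2 and 3 were the highest, and replicate 1 lay among the others, which gave -0.88 ± 0.29 (adjusted p = 0.168) for Plasmax-TE+Fe against Plasmax.

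The histone demethylases were the largest group, with 14 members, of which 3 were lower in Plasmax than in EMEM (11.5% of all genes were). None of the 14 was called in Plasmax-TE+Fe against Plasmax-TE (0.258% of all genes), Plasmax-TE against Plasmax (11.2%) or Plasmax-TE+Fe against Plasmax (1.20%). KDM4B (ENSG00000127663) had 37.0, 40.6 and 42.7 CPM in Plasmax-TE+Fe, 51.4, 39.5 and 40.3 in Plasmax-TE, 33.3, 44.9 and 36.4 in Plasmax and 66.0, 80.1 and 51.9 in EMEM. Every EMEM library was above every other library, and Plasmax against EMEM gave -0.84 ± 0.18 (adjusted p = 0.00263). KDM7A (ENSG00000006459) had 34.9, 33.5 and 34.3 CPM in Plasmax-TE+Fe, 35.4, 32.3 and 32.4 in Plasmax-TE, 42.9, 34.5 and 34.1 in Plasmax and 51.7, 47.0 and 60.5 in EMEM. The media without trace elements differed little in it, and EMEM was again highest in each library. Its value in Plasmax against EMEM was -0.57 ± 0.17 (adjusted p = 0.0218), lost without Plasmax replicate 2 (0.119), Plasmax replicate 3 (0.0525) or EMEM replicate 3 (0.119).

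KDM2B (ENSG00000089094), which binds unmethylated CpG-rich DNA, had 26.9, 36.2 and 20.4 CPM in Plasmax-TE+Fe, 23.4, 31.9 and 26.2 in Plasmax-TE, 23.7, 29.8 and 29.6 in Plasmax and 32.4, 46.1 and 44.6 in EMEM. Its call in Plasmax against EMEM (-0.62 ± 0.22, adjusted p = 0.0489) was lost with any single library left out except Plasmax-TE+Fe replicate 2, Plasmax-TE replicate 1 and EMEM replicate 1 (0.0504 to 0.156). KDM5A had 112, 131 and 129 CPM in Plasmax-TE+Fe, 140.4, 117 and 93.7 in Plasmax-TE, 174, 157 and 138 in Plasmax and 157, 159 and 136 in EMEM. It was among the 3 lowest p in Plasmax-TE+Fe against Plasmax (-0.33 ± 0.15, adjusted p = 0.326), and Plasmax-TE against Plasmax gave -0.42 ± 0.15 (adjusted p = 0.0779), or -0.53 with an adjusted p of 0.0253 without the 2 libraries that stood apart. The other 10, KDM2A, KDM3B, KDM4A, KDM4C, KDM5B, KDM5C, KDM6A, KDM6B, PHF8 and PHF2, were called in 0 of the 5 tests.

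PHYH (ENSG00000107537), the peroxisomal phytanoyl-CoA hydroxylase that starts the breakdown of phytanic acid, had the largest ratio between its highest and lowest medium mean of all 44 members. It had 17.7, 29.7 and 21.4 CPM in Plasmax-TE+Fe, 37.1, 35.4 and 25.1 in Plasmax-TE, 23.0, 13.6 and 12.1 in Plasmax and 56.7, 52.4 and 40.5 in EMEM. EMEM was highest, Plasmax-TE lay above Plasmax without overlap, and Plasmax-TE+Fe overlapped both. PHYH was 2.05-fold higher in Plasmax-TE than in Plasmax (1.04 ± 0.25, adjusted p = 0.0125, and 0.0809 without Plasmax replicate 2 or 0.0531 without Plasmax replicate 3) and lower in Plasmax than in EMEM (-1.69 ± 0.25, adjusted p = 5.34e-05). Plasmax-TE+Fe against Plasmax-TE gave -0.53 ± 0.24 (95% interval -1.08 to 0.03, adjusted p = 0.510, and 0.208 with a block for the run). PHYHD1, a relative read as context, was likewise lower in Plasmax than in EMEM (6.06 ± 1.01 CPM against 17.5 ± 4.20 CPM, -1.54 ± 0.30, adjusted p = 0.00103).

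**Figure D4:**
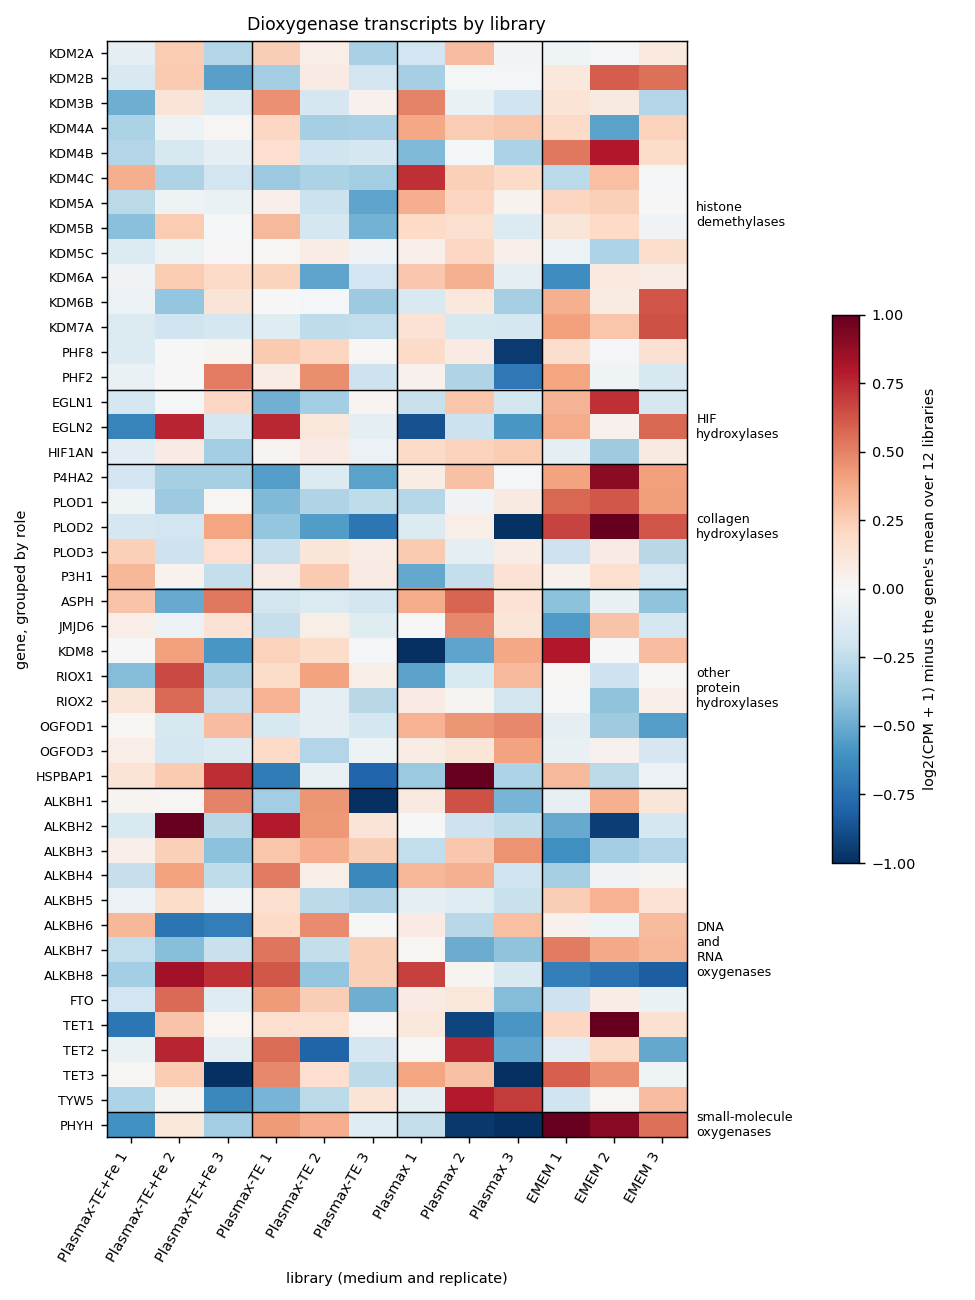
Log2(CPM + 1) of the 44 dioxygenases in the 12 libraries, minus each gene's mean over them, with genes grouped by role and media from left to right as Plasmax-TE+Fe, Plasmax-TE, Plasmax and EMEM. Colours are clipped at 1 in either direction. PLOD2, PLOD1, P4HA2, KDM4B, KDM7A and PHYH are highest in EMEM, OGFOD1 is highest in Plasmax, and most other genes show no block of colour by medium.

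In Plasmax against EMEM, PHYH, PLOD1, PLOD2, KDM4B and OGFOD1 were called under all 22 alternative analyses, and the other 8 calls were lost under at least 1. The count of 13 members, against 21.4% of all genes, was 5 without Plasmax replicate 2 (13.9% of all genes), 7 without Plasmax replicate 3 (18.8%) and 7 without EMEM replicate 3 (14.1%). The last kilobase of 14 members overlaps another gene in GENCODE 29. On the opposite strand these include BBS2 for OGFOD1, RNF34 for KDM2B, PSPN for ALKBH7, CLVS1 for ASPH, C2orf69 for TYW5 and an antisense gene each for PLOD2 and P4HA2, and on the same strand the readthrough gene RAB4B-EGLN2 for EGLN2. The strand setting of the counting is not stated, so reads of such pairs may have been shared.

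Around the family, other relatives and the enzymes that make or use 2-oxoglutarate were read the same way. Of 15 further family members 10 were tested, with 3 lower in Plasmax than in EMEM (EGLN3, P4HA1 and PHYHD1, against 11.5% of all genes) and 1 higher in Plasmax-TE than in Plasmax (P4HA1, against 5.61%). In Plasmax-TE+Fe 0 were called against Plasmax-TE (0.258% of all genes) or against Plasmax (1.20%). Of 22 enzymes of 2-oxoglutarate, succinate and fumarate 21 were tested. In Plasmax against EMEM 3 were lower and 2 were higher (23.8%, against 21.4% of all genes). The isocitrate dehydrogenases IDH1 (-0.77 ± 0.14) and IDH2 (-1.09 ± 0.21) and the glutamate dehydrogenase GLUD1 (-1.07 ± 0.18) were lower. IDH3A (0.58 ± 0.20), a subunit of the mitochondrial isocitrate dehydrogenase of the citric acid cycle, and the aminotransferase GOT2 (0.71 ± 0.16) were higher. In Plasmax-TE against Plasmax IDH1 (0.49 ± 0.14, adjusted p = 0.0320) and GLUD1 (0.81 ± 0.18, adjusted p = 0.00595) were higher.

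With iron put back 0 of the 21 were called, against 0.258% of all genes. IDH1, which makes 2-oxoglutarate in the cytosol, came nearest, with 248, 267 and 219.5 CPM in Plasmax-TE+Fe against 364, 354 and 367 in Plasmax-TE. The libraries did not overlap, and the log2 fold change was -0.57 ± 0.14 with an adjusted p of 0.101. IDH1 was called lower with a block for the library-number run (-0.57, adjusted p = 0.0196), where 1.45% of all genes were called, by DESeq2 (0.0200) and without Plasmax-TE+Fe replicate 2 (0.0471), alternatives added for this gene after seeing the data. Over all alternatives its adjusted p ran from 0.0196 to 0.620.

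Genes that respond to cellular iron were read beside the family. The transferrin receptor TFRC, whose messenger RNA is held stable when iron is low, had 68.1, 35.7 and 75.0 CPM in Plasmax-TE+Fe against 54.8, 75.8 and 85.3 in Plasmax-TE, with overlapping libraries (-0.27 ± 0.24, adjusted p = 0.788). The ferritin subunits FTH1 and FTL, which are controlled by iron mainly at translation, were 0.08 ± 0.13 and 0.08 ± 0.17 in that comparison. In Plasmax-TE against Plasmax, TFRC was -0.22 ± 0.23 (adjusted p = 0.594), FTH1 -0.16 ± 0.13 (0.462) and FTL -0.16 ± 0.17 (0.594). The iron hormone hepcidin, HAMP, averaged 76.8 ± 7.78 CPM in Plasmax-TE+Fe, 80.2 ± 26.4 in Plasmax-TE, 7.11 ± 1.08 in Plasmax and 44.5 ± 11.7 in EMEM. It was higher in both media without trace elements than in Plasmax (3.44 ± 0.31 for Plasmax-TE+Fe, 3.52 ± 0.31 for Plasmax-TE), while for iron put back it was -0.08 ± 0.23. TFRC was lower in Plasmax than in EMEM (-0.88 ± 0.23, adjusted p = 0.00870).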

How the data were processed

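Total RNA of 12 HepG2 libraries was prepared with a QuantSeq 3′ kit, per the labels' protocols. The values the authors deposited are unnormalized read counts by gene. FastQC 0.72, cutadapt 1.16, STAR 2.7.5b, featureCounts 1.6.3, limma 3.40.6 and the build hg19 (GRCh37) are named per the submitters' processing notes, and no annotation is named there. The table had 10994 entries, of which 54 surplus entries of 53 repeated identifiers were dropped. No gene had a third-highest library under 4.04 CPM, which shows a low-count filter applied before deposit.

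In R 4.3.3, edgeR 4.0.16 filtered genes with filterByExpr (minimum count 10, minimum total count 15), which removed 481, and scaled libraries by TMM (factors 0.964 to 1.06). One quasi-likelihood model of the 4 media covered all 12 libraries and left 8 residual degrees of freedom, and the 4 media together and 4 pairwise comparisons were tested, two-sided. Each SE is the size of the log2 fold change over √F. With 3 against 3 libraries the smallest exact permutation p is 0.1. The analysis was repeated with DESeq2 1.42.0, limma-voom (limma 3.58.1), RLE factors, unscaled library sizes, no filter, a stricter filter, a replicate block, a library-number block, single libraries left out, only the 6 libraries of a comparison, and without both libraries that stood apart.

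Replicate numbers did not pair the samples of Plasmax-TE+Fe and Plasmax-TE (correlations of deviations -0.433, -0.285 and 0.146). The 3 runs of 4 consecutive library numbers, grouped here from the numbers in the labels, gave 0.534, 0.217 and 0.377 for these media. These correlations are not independent of each other. Deviations from a medium's mean sum to 0, and both libraries that stood apart fell in the same run. With a block for the run 0 members were called there, against 1.45% of all genes. Members called in any test, the HIF hydroxylases, and the 3 members with the lowest p of a comparison without a call are described one by one. HSPBAP1, PLOD3, P3H1, FTO and IDH1 for iron put back were named after their values were seen. The members, gene lists and named-gene rule were chosen with earlier results of these data known. Promoter windows come from RefSeq (GRCh38.p14).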

Additional observations from a re-analysis of the deposited data

How the results depend on the processing

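Over the alternative analyses, the 4 media together called 8 members (18.0% of all genes), and 14 with a library-number block (27.1%) or without both libraries that stood apart (24.7%). Leaving out 1 library at a time gave 6 (without EMEM replicate 3, 12% of all genes) to 13 (without Plasmax-TE+Fe replicate 2, 23%). Plasmax-TE against Plasmax called 2 members (11.2% of all genes) and 4 with either of these 2 settings (17.8% and 11.0%), which added ASPH and KDM5A. With single libraries left out it called 0 to 4. It called 0 without Plasmax replicate 2 (4.46% of all genes) or 3 (9.33%), and 4 without Plasmax-TE+Fe replicate 2 (14.7%). Plasmax-TE+Fe against Plasmax-TE gave 0 to 1, the 1 being ASPH without Plasmax-TE+Fe replicate 2 (2.14% of all genes). Plasmax-TE+Fe against Plasmax gave 0 throughout, against 0.29% (without Plasmax replicate 2) to 3.56% of all genes (library-number block). Plasmax against EMEM gave 13 of the 44 members (21.4% of all genes), and 9 with library size alone (21.6%). With single libraries left out, Plasmax against EMEM gave 5 (without Plasmax replicate 2, 13.9%) to 14 (without Plasmax-TE+Fe replicate 2, 24.7%). With library size alone or without Plasmax replicate 2, the share of members called was below that of all genes. The causes of these shifts were not tested. With the replicate block, 8 members were called for the 4 media together (15.9% of all genes) and 0 for Plasmax-TE+Fe against Plasmax-TE (0.182%). There were 2 for Plasmax-TE against Plasmax (9.79%), 0 for Plasmax-TE+Fe against Plasmax (1%) and 11 for Plasmax against EMEM (19.9%). P4HA2 and KDM2B, the calls nearest the threshold, were also lost under RLE factors (adjusted p 0.0513 and 0.0516), library size alone (0.0783 and 0.0757), DESeq2 (0.0855 and 0.0735) and the stricter filter (0.0515 and 0.0535). KDM2B was lost under limma-voom (0.0523), and EGLN2 and ALKBH5 with library size alone (0.0644 and 0.0700). Values near 0 changed sign: EGLN2 in Plasmax-TE+Fe against Plasmax-TE ran from -0.70 to 0.041 with single libraries left out, and was above 0 without Plasmax-TE+Fe replicate 1 (0.041) or Plasmax-TE replicate 1 (0.013). EGLN1 in Plasmax-TE+Fe against Plasmax ran from -0.086 to 0.19, and was below 0 without Plasmax-TE+Fe replicate 3 (-0.086), Plasmax replicate 1 (-0.051) or Plasmax replicate 3 (-0.014). The libraries held 1562125 to 2384090 counts. For iron put back, intervals that reached 2-fold included those of members of a few CPM. They also included those of PLOD2 (means of 185 CPM in Plasmax-TE+Fe and 123 in Plasmax-TE) and PHYH (22.9 and 32.6).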
